A study of Mus musculus with 10 samples.

Results

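The regions described here were 1594 wide, solitary and distal OTX2 peaks listed in definitive endoderm (DE) and not in the cells it was made from. DE is the embryonic layer that gives rise to gut, liver and pancreas. The 1594 peaks were 3.73% of the 42711 peaks of the DE list. They were selected on measured values, namely 4 properties of the peak lists. A peak had to lie on chromosome 1 to 19 or X and be among the 19.8% that reached the width threshold given with the processing, which left 8466 of 42694 peaks. It could not overlap a peak of the list from epiblast stem cells (EpiSCs), the culture state from which the DE was made, which left 6101. Its centre had to lie more than 1 kb and at most 100 kb from the closest end of a protein-coding gene, which left 4127. No other DE peak centre could lie within 10 kb, which left the 1594 peaks, called members below. Width, EpiSC overlap, distance and spacing are therefore given as descriptions only. A site missing from the EpiSC list may have been bound there below the caller's threshold.

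OTX2 was tagged in the cell line 7H OTX2-dTAG-EGFP, of BL6/129 hybrid strain, and mapped with an anti-HA antibody by CUT&RUN, in which a nuclease tethered by the antibody releases the DNA around its target. EpiSCs of that line gave 2 HA and 3 IgG samples, and their N2B27 medium held FGF2 at 12.5 ng/ml, NVP at 175 nM and Activin A at 20 ng/ml. DE of the same line gave 2 HA samples and 1 IgG sample, and DE of the parental line 5.8, of the same hybrid strain, gave 1 of each. DE was made in CDM in a first step of 16 h, with CHIR at 3 µM and Activin A at 40 ng/ml, and a second of 24 h, with LDN at 100 nM and Activin A at 100 ng/ml, and live cells were sorted with DAPI. Each sample held 500000 cells. The labels state no treatment that would degrade the tagged protein, and 1 tagged line was used throughout. Expression was not analysed here, so the labelled cell types could not be checked against their markers.

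OTX2 is a homeodomain transcription factor of the epiblast, the anterior endoderm and the forebrain. Homeodomains of its class bind DNA at a short core, TAATCC, often at sites far from gene starts. A distal site can act on a gene many kilobases away, and the nearest gene is only one of the genes it could act on.

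The authors deposited 1 HA list for both replicates of a state, with position and no height, so no value below has a spread between replicates, and intervals cover counting error only. Read depth was unknown. The EpiSC list held 6319 peaks. The background lists were short: the lists of the 3 EpiSC IgG samples had 202, 149 and 200 peaks and that of the parental HA sample had 14. All 149 intervals of IgG replicate 2 were also the first 149 of replicate 3, so these lists are not separate measurements. No member overlapped any of them, and 0 of 1594 allows a share of up to 0.188%, taking 3 counts as the limit that a count of 0 allows (the upper end of the 95% Wilson interval was 0.240%). Over the whole DE list 35 peaks (0.0820%) overlapped one. That share lies under both limits, so the 0 does not set the members apart from the whole list. The rule had also removed peaks that overlap an EpiSC HA peak beforehand, and DE IgG lists were not used.

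Sequence could be shown for the members that lay on the start of an annotated transcript, since RefSeq promoter windows (build GRCm38.p6, 250 bases before to 50 after a start) were used for sequence. The rule kept members away from the ends of coding genes, so these were starts of long noncoding RNAs or starts inside coding genes. Of the 1534 members on the chromosomes of that window table, 33 (2.15%, 95% Wilson interval 1.54 to 3.01) overlapped a window, 20 of them at a long noncoding RNA and 13 at a coding gene. The same held for 2.37% of narrow peaks that met the other conditions, for 2.98% of wide ones with a neighbour within 10 kb, and for 8.29% of wide solitary ones that overlapped an EpiSC peak. The core TAATCC, searched on both strands (GGATTA on the other), was present in the bases that peak and window had in common for 4 of the 33. Those 4 are printed first, so that both kinds can be read. The 2 without it whose whole window lay inside the peak, Pde4dip and Scpep1os, follow. Each runs 5′ to 3′ on the strand of its transcript, with the core in capitals, and covers only the part of the window inside the peak. For the coding genes the bases after the start were left out.

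The window of Gm46948, a long noncoding RNA on the minus strand, was chr6:4465228-4465527. The part of the AW047730 window inside the peak was chr3:88198024-88198319, on the plus strand. For 9130230L23Rik it was chr5:66004236-66004511 on the minus strand. For Nhsl1, a coding gene of actin regulation, it was chr10:18407522-18407674 on the plus strand.
Gm46948: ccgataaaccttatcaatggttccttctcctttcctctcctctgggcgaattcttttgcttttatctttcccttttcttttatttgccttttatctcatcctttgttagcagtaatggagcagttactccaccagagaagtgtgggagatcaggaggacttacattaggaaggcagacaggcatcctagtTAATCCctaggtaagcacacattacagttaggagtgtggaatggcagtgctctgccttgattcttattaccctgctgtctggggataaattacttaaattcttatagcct
AW047730: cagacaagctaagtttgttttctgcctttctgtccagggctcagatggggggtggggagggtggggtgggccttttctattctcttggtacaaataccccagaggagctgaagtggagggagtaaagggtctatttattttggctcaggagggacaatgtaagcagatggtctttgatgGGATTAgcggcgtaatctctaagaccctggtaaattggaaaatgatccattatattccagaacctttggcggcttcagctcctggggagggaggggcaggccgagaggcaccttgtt
9130230L23Rik: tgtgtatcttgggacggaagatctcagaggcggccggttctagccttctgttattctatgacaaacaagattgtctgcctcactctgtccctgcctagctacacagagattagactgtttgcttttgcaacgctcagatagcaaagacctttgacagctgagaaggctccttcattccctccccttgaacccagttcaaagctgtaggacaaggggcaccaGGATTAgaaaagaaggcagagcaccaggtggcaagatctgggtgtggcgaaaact
Nhsl1: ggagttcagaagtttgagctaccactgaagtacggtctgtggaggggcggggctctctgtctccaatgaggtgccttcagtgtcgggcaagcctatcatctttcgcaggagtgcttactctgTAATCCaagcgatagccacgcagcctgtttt

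The stretch for Pde4dip, which encodes a protein of the Golgi and centrosome, was chr3:97768015-97768264 on the minus strand. For the long noncoding RNA Scpep1os it was chr11:88905678-88905977 on the plus strand.
Pde4dip: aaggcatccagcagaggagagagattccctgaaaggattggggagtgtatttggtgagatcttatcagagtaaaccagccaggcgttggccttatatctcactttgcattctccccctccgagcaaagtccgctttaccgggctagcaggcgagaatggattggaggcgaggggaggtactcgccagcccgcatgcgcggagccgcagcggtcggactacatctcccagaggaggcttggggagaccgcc
Scpep1os: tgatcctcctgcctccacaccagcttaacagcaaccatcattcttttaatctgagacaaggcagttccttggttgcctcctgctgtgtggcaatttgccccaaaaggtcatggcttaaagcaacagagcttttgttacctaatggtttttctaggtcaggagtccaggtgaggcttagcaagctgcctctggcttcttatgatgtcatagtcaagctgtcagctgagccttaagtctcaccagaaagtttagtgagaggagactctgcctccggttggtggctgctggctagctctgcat

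The peak at Gm46948 was 553 bp wide and that at AW047730 397 bp. The peaks at 9130230L23Rik and Nhsl1 were 279 and 242 bp, and those at Pde4dip and Scpep1os 438 and 497 bp. GC content of the printed stretches ran from 42.0% at Gm46948 to 58.0% at Pde4dip. Of the 37 windows touched by members, 4 (10.8%, 4.29 to 24.7) held the core anywhere. It was in 7.04% of all 32619 windows of the same 300 bases and in 7.97% of the 6026 that overlapped any DE peak. Both shares lay within the interval of the members. One of the 33 members, a 369-bp peak named for Ndrg1 and lying on the start of the long noncoding RNA Gm31342, carried a mark in the authors' deposited table (down).

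Member width had a median of 288 bp and an interquartile range of 255 to 343.5 bp, up to 844 bp. Together the members covered 498.6 kb. By the rule, 23 members lay exactly at the width threshold, and 19 peaks that met every other condition were 1 bp narrower. Wide peaks with a DE neighbour within 10 kb (2533, called clustered) had a median of 292 bp, and wide solitary peaks that overlapped an EpiSC peak (376, called kept) had one of 314 bp. The 10033 narrow peaks had one of 111 bp.

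The closest coding gene end lay at a median of 23644 bp, with 402 members (25.2%) at 1 to 10 kb, 803 (50.4%) at 10 to 50 kb and 389 (24.4%) at 50 to 100 kb. The nearest member to an end was 1018 bp away, in Kcnn3, a calcium-activated potassium channel gene, and the farthest, named for Gm24298, was 99746 bp from Hmga2, which encodes a chromatin protein. Just outside the range lay peaks named for Crxos, at 998 bp, and Gm44436, at 100032 bp. Width and distance had a Spearman correlation of 0.02 over the 1594 members, which share 1 list. The widest members were found both near to and far from gene ends.

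The next DE peak centre was at a median of 24898 bp, and for the most isolated member at 646272 bp. The member nearest to the spacing limit, named for Prpf8, had its neighbour at 10010 bp, and the peak just outside, named for Apold1, at 9952 bp. The closest EpiSC peak lay at a median of 167956 bp. Only 18 members (1.13%) had one within 10 kb, against 1.59% of narrow, 16.3% of clustered and 20.8% of all DE peaks. The smallest gap was 6 bp. The spacing condition bears on this share, since it removes peaks that neighbour a DE peak kept from EpiSCs.

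**Figure D1:**
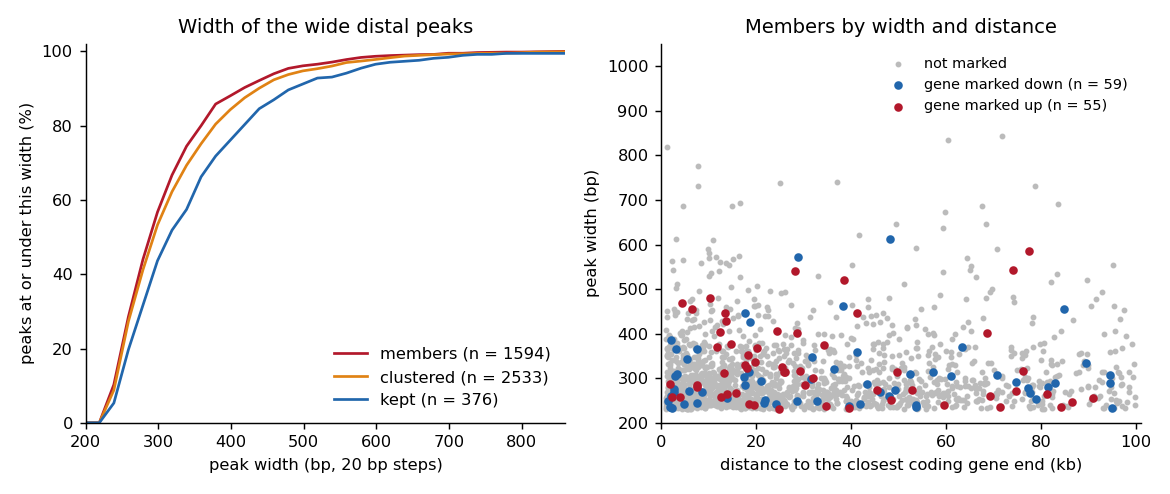
Left, cumulative share of peaks (%) against peak width (bp) for members, clustered and kept peaks. Right, peak width (bp) against distance to the closest coding gene end (kb) for each member, coloured where the authors' deposited table marks the named gene. The kept peaks lie to the right of the members (median 314 against 288 bp), and marked members are spread over the whole range of distance.

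Members were spread over all 20 chromosomes tested. Chromosome 1 held the most, with 136, and chromosome 19 the fewest, with 47. Set against the number of DE peaks, the share was lowest on chromosome 8 (2.65 members per 100 DE peaks) and highest on the X (5.79). The chromosomes differ in gene density and size, whose part in this was not tested.

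Of the members, 823 (51.6%, 49.2 to 54.1) had their centre inside a protein-coding gene. Over all DE peaks the share was 46.6% (46.1 to 47.1), with no test. That group includes peaks at gene ends and beyond 100 kb, which the rule left out. The gene table gives extents only, so exons and introns were not told apart. This position was not used by the rule and was tested against 3 comparison classes by Fisher's exact test (two-sided; p-values adjusted over the 3 by the Benjamini-Hochberg method). Narrow peaks were inside in 51.6%, a difference of 0.0713 percentage points (95% interval -2.57 to 2.71, exact p = 0.978, adjusted p = 0.978). Clustered peaks were inside in 50.4%, and the difference of 1.22 points had an interval of -1.91 to 4.34 (exact p = 0.462, adjusted p = 0.978). Kept peaks were inside in 50.8%, a difference of 0.833 points (-4.75 to 6.43, exact p = 0.775, adjusted p = 0.978). No difference passed the test, and the intervals leave differences of a few points possible. With a spacing limit of 5 kb in place of 10 kb, the difference from clustered peaks was 4.91 points (Fisher's exact test, adjusted p = 0.00535). That p-value was adjusted over the 3 classes of this setting alone. The test takes peaks as independent, but neighbouring clustered peaks often share a gene, so no call is drawn from it.

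For 844 members the gene named in the authors' deposited table had a known strand. Of these, 428 (50.7%) lay inside the named gene, 264 (31.3%) upstream and 152 (18.0%) downstream. Over all DE peaks, which include those at gene starts, 48.5% lay inside, 38.3% upstream and 13.2% downstream. Narrow peaks, held to the same limits of distance, gave 52.4%, 31.0% and 16.6%, close to the members. The median distance from the 5′ end of the named gene was 27928 bp for members and 23620 bp for narrow peaks. The name in the authors' deposited table was that of the closest coding gene end for 817 members (51.3%). Of the members, 963 (60.4%) were named for a gene that the RefSeq table lists as protein-coding, against 62.1% of all DE peaks.

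A member need not sit near an occupied start. The closest coding gene had a DE peak within 1 kb of a start for 424 of the 1241 members with a known start (34.2%, 31.6 to 36.9). The share was 33.8% for narrow peaks, 48.5% for clustered peaks, 38.6% for kept peaks and 50.5% over all DE peaks. An EpiSC peak lay at such a start for 120 members (9.67%), against 9.25% of narrow, 12.9% of clustered, 18.8% of kept and 16.5% of all DE peaks. These shares are set in part by the rule. A member close to a start cannot have another DE peak there, a clustered peak can, and all DE peaks include those that lie at a start themselves.

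The authors' deposited table named 1500 genes for the 1594 members. Of these, 1414 had 1 member, 78 had 2 and 8 had 3. For 581 members (36.4%, 34.1 to 38.8) the member was the only DE peak named for its gene, against 40.2% of narrow, 40.7% of kept, 4.34% of clustered and 23.7% of all DE peaks. The low share of clustered peaks follows in part from how they were defined, since a neighbour within 10 kb often has the same gene. For 1337 members (83.9%) no EpiSC peak carried the same gene name, against 82.8% of narrow, 69.3% of clustered and 68.0% of all DE peaks. The last group still holds the peaks that overlap an EpiSC peak, which the rule removed, so this gap is partly fixed by the rule.

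**Figure D2:**
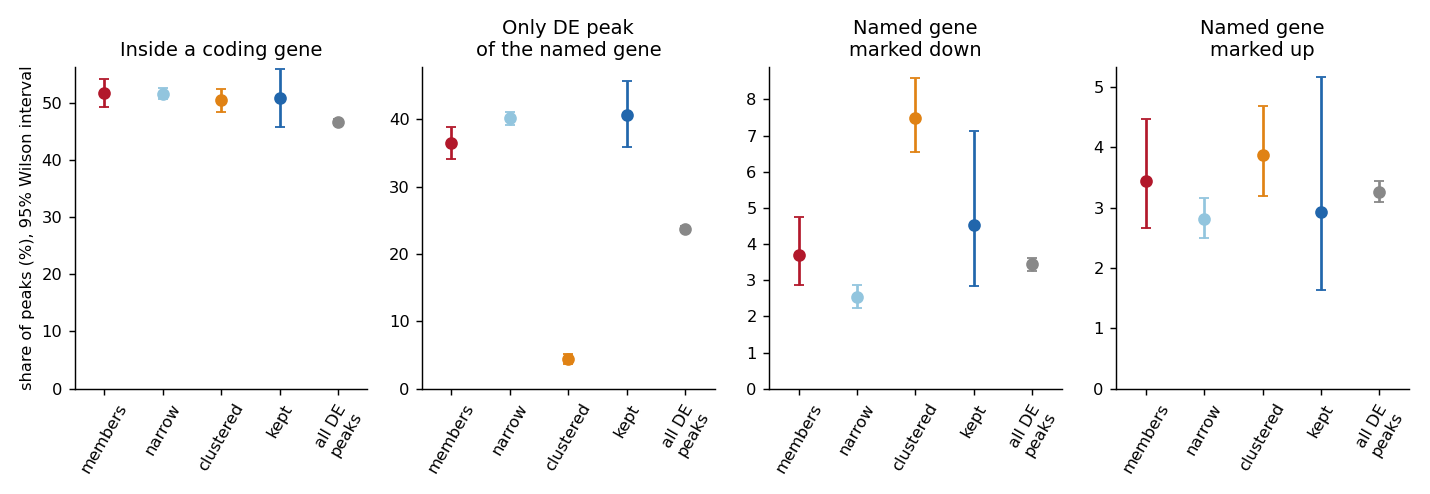
Share of peaks (%) with 95% Wilson intervals, for members, narrow, clustered and kept peaks and all DE peaks, in 4 panels with separate axes from 0. Members lie at 51.6% inside a coding gene, at 36.4% as the only DE peak of the named gene, at 3.70% marked down and at 3.45% marked up, close to all DE peaks for both marks.

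The same table marks some genes as down and some as up. The contrast behind the marks is not given in the sources used here, so they are reported as marks only. They were set on genes and are not part of the rule. Among the members, 59 (3.70%, 2.88 to 4.75) had a named gene marked down in the authors' deposited table, against 3.44% over all DE peaks. Another 55 members (3.45%, 2.66 to 4.46) had one marked up, against 3.27% over all DE peaks. Both shares were near the background, and so are no result about the members. Narrow peaks were lower for the down mark, at 2.53% (2.24 to 2.86), and kept and clustered peaks higher, at 4.52% (2.84 to 7.12) and 7.50% (6.54 to 8.59), with no test of these differences. For the up mark the classes were closer together, at 2.81% of narrow, 3.87% of clustered and 2.93% of kept peaks.

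Split by width, the down mark was at 3.87% of the 904 members under 300 bp, 3.61% of the 499 from 300 to under 400 bp, 2.94% of the 170 from 400 to under 600 bp and 4.76% (1 of 21) of those of 600 bp or more. The up mark was at 2.77%, 3.21% and 8.24% (14 of 170, 4.97 to 13.3) in the first 3 of these bins, and at 0 of 21 in the last. This split was chosen after its values were seen and has no test. Median width was 314 bp for members with an up mark and 288 bp for those with a down mark.

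The 59 down-marked members were named for 51 genes in the authors' deposited table. Of them, 34 lay inside the gene, 11 upstream and 9 downstream, and the rest outside a gene of unknown strand. The 34 include genes of unknown strand, so these counts are not set against the shares of the 844 members with a known strand. For 45 of the 59 (76.3%) no EpiSC peak carried the gene's name, against 83.9% of all members and 51.2% of all down-marked DE peaks, which include those that overlap an EpiSC peak. The widest, of 612 bp (chr2:102137938-102138549), lay inside Ldlrad3, which encodes a membrane protein with LDL-receptor repeats, 48216 bp from its 5′ end. The next, of 573 bp, lay inside Kctd16, a gene for an auxiliary subunit of GABA-B receptors.

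The others of the 6 widest down-marked members were named for Isl1, Alx1, Cadm1 and Chrnb4. A 463-bp member (chr13:116259683-116260145) lay 49774 bp from the 5′ end of Isl1, a LIM homeodomain factor of heart and motor neuron progenitors, on its downstream side. A 456-bp member (chr10:102922831-102923286) lay 84788 bp outside Alx1, a homeodomain factor of craniofacial mesenchyme. A 447-bp member (chr9:47547577-47548023) was inside Cadm1, a cell adhesion gene, and one of 427 bp (chr9:55067372-55067798) was 18632 bp upstream of Chrnb4, a nicotinic receptor subunit. All 6 are marked down in the authors' deposited table, and Cadm1 alone among them had an EpiSC peak named for it.

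Of the 1500 genes named for members, 78 had 2 members and 8 had 3. In the authors' deposited table, 6 of 51 down-marked genes had more than 1 member, picked out after their values were seen and not tested. They were Vegfa and Myof, with 3 each, and Fam189a1, Samd4, Sms and Vav3, with 2 each. Sms encodes the enzyme spermine synthase. The Vav3 members, of 243 and 235 bp, lay inside the gene and 53707 bp upstream, and both Sms members, of 260 and 245 bp, lay inside the gene.

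For 10 down-marked genes of the authors' deposited table the member was the only DE peak of that name. They were Tbx1, Proc, Coch, Grb10, Rasal2, Tm6sf1, Sox17, Tex264, Fgfbp1 and Tmtc2, listed after their values were seen. Sox17 and Tbx1 are known regulators of endoderm and of pharyngeal and cardiac development, and Grb10 is an imprinted growth regulator. Among the 55 up-marked members there were 4 such genes, Itpkb, Socs2, Peg10 and Gnai1. Peg10 is an imprinted gene of the placenta and Socs2 an inhibitor of cytokine signalling. Of all members 36.4% were the only DE peak of their gene, and of all DE peaks 23.7%. The counts of 10 of 59 and 4 of 55 lie below these shares. The share over all marked DE peaks was not computed.

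The 55 up-marked members were named for 45 genes in the authors' deposited table, with 34 inside the gene, 13 upstream and 6 downstream. The rest lay outside a gene of unknown strand, and the 34 again include genes of unknown strand. For 35 of the 55 no EpiSC peak carried the gene's name, against 83.9% of all members. The widest, of 586 bp (chr2:140748556-140749141), lay 77372 bp upstream of Flrt3, a membrane protein of cell adhesion and axon guidance. Its centre was inside Macrod2, a gene that spans Flrt3, so the host of a member and its named gene can differ. A 543-bp member (chr4:20706462-20707004) lay inside Nkain3, which encodes a partner of the sodium pump.

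The rest of the 6 widest up-marked members were named for Itpr2, Cyp26a1, Tmem163 and Ntn1. The member of Itpr2, a calcium channel gene of the endoplasmic reticulum, was 540 bp wide (chr6:146079917-146080456) and lay 28112 bp beyond the 3′ end of the gene. The 479-bp member of Tmem163, a zinc transporter gene, lay inside it (chr1:127500386-127500864). The 468-bp member of Ntn1, the axon guidance ligand netrin, lay 4360 bp outside the gene (chr11:68390953-68391420). Of the 6 genes, Cyp26a1 had 2 EpiSC peaks and Flrt3 had 1 to its name in the authors' deposited table, and Nkain3, Itpr2, Tmem163 and Ntn1 had none.

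More than 1 up-marked member was found at 10 of 45 up-marked genes of the authors' deposited table, again picked out afterwards and not tested. Of all 1500 genes named for members, 78 had 2 members and 8 had 3. The 10 were Arhgef26, Cdh2, Gpm6b, Igfbp2, Inpp4a, Itpr2, Nkain3, Rnf220, Ryr2 and Trps1. Itpr2 and Ryr2 both encode calcium release channels of internal stores. Igfbp2 encodes a binding protein of insulin-like growth factors, and its members, of 301 and 273 bp, lay 31991 and 45438 bp upstream.

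The 12 widest members, from 686 to 844 bp, carried no mark in the authors' deposited table, nor did a member named for Chst15, also of 686 bp, which tied with the last of them and is not counted here. Of the 12, 6 lay inside the gene they were named for, namely Nhej1 (834 bp), Rmdn3 (777 bp), Kidins220 (741 bp), Hgd (732 bp), Tenm3 (690 bp) and Nebl (686 bp). Nhej1 encodes a factor of DNA end joining, Kidins220 a scaffold of neurotrophin receptors, Hgd an enzyme of tyrosine breakdown and Tenm3 a teneurin of axon targeting. Their roles have no theme that was tested.

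Another 3 of the 12 lay inside a coding gene other than the one named. A 731-bp member named for Clip4 was inside Alk, a receptor tyrosine kinase gene (chr17:71947310-71948040). A 686-bp member named for Gm22616 was inside Eya1, a developmental phosphatase and transcriptional co-regulator (chr1:14173131-14173816). A 693-bp member named for Gm22676 was inside the overlapping genes Chrm5 and Aven. The last 3, named for Gm43565 (844 bp, chr3:53729961-53730804), 2410137M14Rik (818 bp) and Spag16 (737 bp), lay outside coding genes. Of the 12, 5 were in the authors' deposited table the only DE peak of their gene, and none of the 12 genes had an EpiSC peak.

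Genes with known roles in this system were taken from 13 lists that together hold 238 names. Of the members, 28 (1.76%) were named for 27 of these genes, against 2.07% over all DE peaks. With the gene of the closest coding gene end in place of the authors' name, 61 members (3.83%) were at a listed gene, against 3.73% over all DE peaks. By either naming the share was near the background. Of the 28, 5 (17.9%) carried in the authors' deposited table a down mark and 4 (14.3%) an up mark, against 25.7% and 13.8% of the 882 DE peaks at listed genes.

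**Figure D3:**
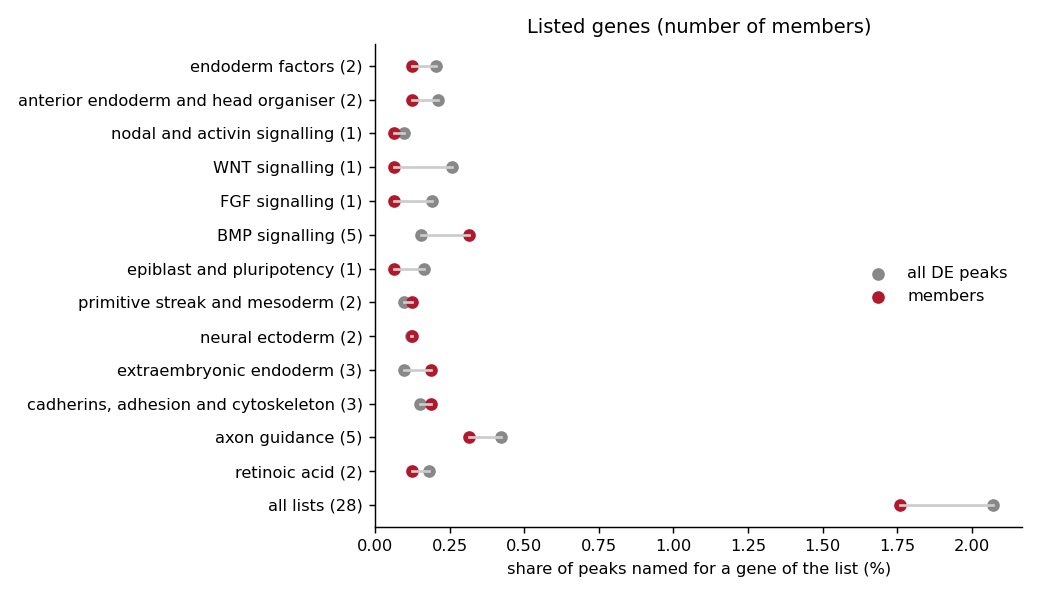
Share of peaks (%) named for a gene of each list, for members and for all DE peaks, with the number of members in brackets. No list reached more than 5 members. The members lie above all DE peaks for the BMP, primitive streak, neural, extraembryonic and adhesion lists. They lie below for the other lists, and no difference was tested.

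Among endoderm factors, 18 of 20 genes had a DE peak and 2 had a member. At Sox17, a master regulator of definitive endoderm, a 268-bp member lay inside the gene (chr1:4493506-4493773), 2711 bp from the closer end. It was the only DE peak named for Sox17, which is marked down in the authors' deposited table. At Prdm1, a repressor needed in germ cells and expressed in endoderm, a 478-bp member lay inside the gene, and Prdm1 carried no mark. Over the list, 0.125% of members and 0.204% of all DE peaks were named for an endoderm factor.

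The list of anterior endoderm and head organiser genes also had 2 members (0.125% against 0.211% of all DE peaks), at Prdm1 and at Cyp26a1, an enzyme that clears retinoic acid. Cyp26a1 had a 520-bp member and an up mark in the authors' deposited table. The retinoic acid list added a 263-bp member 7808 bp upstream of Cyp26b1 (chr6:84601585-84601847), the related enzyme. That list took 0.125% of members and 0.180% of all DE peaks.

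Among ligands, receptors and mediators of signalling, BMP genes had 5 members at 5 of 19 genes (0.314% of members, 0.155% of all DE peaks). Ordered by role, they were the ligand gene Bmp5 (235 bp, inside), the receptor gene Bmpr1b (281 bp, inside), the decoy receptor gene Bambi (279 bp, outside), the mediator gene Smad5 (466 bp, inside) and the inhibitory Smad6 (309 bp, downstream). Bambi alone was marked, as down, in the authors' deposited table. With 5 members the share rests on few peaks, and it has no test.

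Nodal and activin signalling had 1 member, of 453 bp, inside Smad3 (chr9:63750402-63750854), the mediator of activin signals, 7366 bp from its 5′ end. WNT signalling had 1 of 325 bp inside Lgr4, a receptor for R-spondins, and FGF signalling had 1 of 236 bp inside the receptor gene Fgfr2. These lists took 0.0627% of members each, against 0.0960%, 0.258% and 0.190% of all DE peaks. None of Smad3, Lgr4 and Fgfr2 was marked in the authors' deposited table, and each had 1 EpiSC peak to its name.

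Epiblast and pluripotency genes had 1 member (0.0627% against 0.164% of all DE peaks), of 339 bp, inside Dnmt3a, the de novo DNA methyltransferase. Primitive streak and mesoderm genes had 2 (0.125% against 0.0960% of all DE peaks). A 365-bp member lay 3207 bp beyond the 3′ end of Tbx1 (chr16:18577590-18577954), and one of 360 bp lay inside Kdr, the receptor for vascular endothelial growth factor (chr5:75954269-75954628). Both were the only DE peak named for the gene in the authors' deposited table, where Tbx1 is marked down and Kdr is unmarked. Neural ectoderm genes had 2 (0.125% against 0.119% of all DE peaks), a 344-bp member inside Pax3 (chr1:78106637-78106980), marked down in the authors' deposited table, and one of 294 bp named for Gbx2 that lay inside Agap1.

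Extraembryonic endoderm genes, which can be shared with embryonic endoderm, had 3 members (0.188% against 0.0983% of all DE peaks). They lay 2225 bp upstream of Afp, the fetal serum protein (250 bp), 11455 bp outside Lama1, a laminin chain of basement membrane (268 bp), and outside Ttr, a carrier of thyroid hormone (235 bp). Lama1 and Afp had no other DE peak of that name in the authors' deposited table. The nearest DE centre lay 177038 bp from the Lama1 member and 145530 bp from the Afp member, so both were among the more isolated members.

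Adhesion genes had 3 members (0.188% against 0.150% of all DE peaks), of 319 bp inside Vcl, which encodes vinculin, and of 314 and 247 bp inside Cdh2, which encodes N-cadherin and is marked up in the authors' deposited table. Axon guidance genes had 5, at Ntn1 (468 bp), Plxna2 (338 bp), Sema3e (324 bp), Sema6d (273 bp) and Ephb2 (271 bp). In the authors' deposited table Ntn1 is marked up and Sema6d down. That list took 0.314% of members and 0.421% of all DE peaks.

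The 8 genes with 3 members in the authors' deposited table were Vegfa, Myof, Dpf3, Tnks2, Selk, C8b, B020004C17Rik and Gm24384. Dpf3 encodes a chromatin-remodelling subunit, Tnks2 a tankyrase that acts on axin, Selk a selenoprotein of the endoplasmic reticulum and C8b a complement component. All 3 Dpf3 members (361, 328 and 274 bp) lay inside the gene, whereas the Selk members (377, 357 and 236 bp) lay 27859 to 99120 bp upstream. Of the C8b members, those of 438 and 326 bp lay upstream and closer to an end of Dab1, and 1 of 305 bp lay inside C8b. Apart from Vegfa and Myof these genes carry no mark.

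Vegfa, the main growth factor of blood vessels, had 13 DE peaks and 2 EpiSC peaks within 150 kb of its 5′ end. The 3 members, of 315, 290 and 289 bp, lay at 33818, 98235 and 109846 bp in the direction of transcription, all beyond the gene's 3′ end. The members at 98235 and 109846 bp were 11610 bp apart and so just met the spacing limit. Both EpiSC peaks lay on the other side of the gene, at -121220 and -128507 bp, and both overlapped DE peaks there. A 158-bp DE peak, too narrow for the rule, lay at the Vegfa start itself. The gene is marked down in the authors' deposited table.

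Myof, which encodes the membrane repair protein myoferlin, had 19 DE peaks in the same window. The members named for it were 365, 321 and 276 bp wide and lay at 7556, 108212 and 147268 bp from the 5′ end, inside the gene for the first and second and just beyond its 3′ end for the third. Another member in the window, of 294 bp, was named for Pde6c. The widest DE peak there, of 391 bp at 122303 bp, was no member because a neighbour lay within 10 kb. Both EpiSC peaks of the window overlapped DE peaks, at 27846 bp inside the gene and at -11346 bp upstream, and neither overlapped a member.

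Cyp26a1 had 15 DE peaks and 1 EpiSC peak in its window. The member, at 42376 bp on the downstream side (chr19:37739855-37740374), was the widest of the 15 at 520 bp. The next widest peaks, of 409 bp at 18536 bp, 330 bp at 27659 bp and 373 bp at -43663 bp, did not meet the rule. The 409-bp peak overlapped the EpiSC peak. No DE peak lay within 1 kb of the Cyp26a1 start.

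Prdm1 had 17 DE peaks and no EpiSC peak in its window. The 478-bp member (chr10:44443329-44443806) lay 84990 bp from the 5′ end, near the 3′ end of the gene, and a second member, of 248 bp and named for Mir1929, lay at 136391 bp. The widest DE peaks there, of 693 bp at 64036 bp and 541 bp at 69745 bp, were within 10 kb of each other and thus outside the rule. At this gene the members were therefore not the widest peaks, unlike at Cyp26a1.

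**Figure D4:**
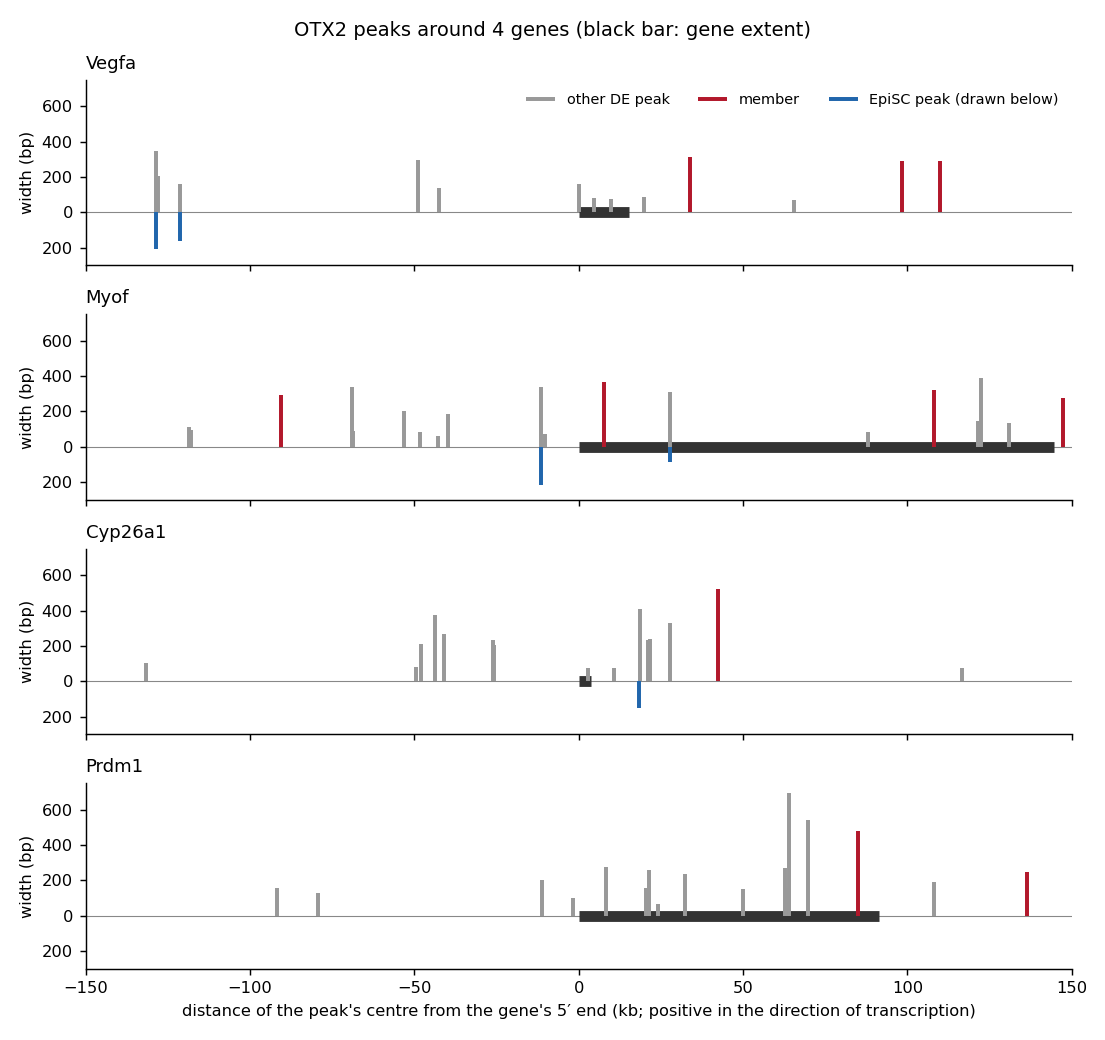
DE peaks (upward bars) and EpiSC peaks (downward bars) by distance of the centre from the 5′ end of Vegfa, Myof, Cyp26a1 and Prdm1 (kb, positive in the direction of transcription), with bar height as peak width (bp) and the gene as a black bar. Members (red) stand apart from other DE peaks by the rule, and no EpiSC peak lies under one.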

How the data were processed

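CUT&RUN peak lists of tagged OTX2 were analysed as deposited: 1 merged HA list per cell state, which the authors deposited with position only, 3 EpiSC IgG lists and 1 parental HA list. A table deposited by the authors for each state adds the nearest gene and a mark of down or up. Per the submitters' processing notes, Bowtie2 2.3.5.1, SAMtools 1.14, Picard 2.26.10, MACS2 2.2.6 and bedtools 2.30 were used; the caller's threshold and control for the HA lists are not given in the sources used here. Intervals were merged over 50 bp, going by the file names. The labels of EpiSC HA replicate 2 and of the DE IgG sample of the tagged line also point to DE HA files, which was taken for an error.

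The merged list and the annotated table of DE held the same intervals. Coordinates were read as mm10 and printed 1-based. The width threshold was 232 bp. Genes were RefSeq for GRCm38.p6, with extents and no exons. Comparison classes changed 1 condition each: narrow (under the threshold), clustered (a centre within 10 kb) or kept (overlapping EpiSC). Shares inside genes were compared with Fisher's exact test in scipy 1.17.1. The rule and the test were run on simulated peaks with a large planted difference. That run does not show how the test behaves on small differences. Intervals are 95% Wilson intervals, and 95% Newcombe intervals for differences. The whole IgG list of EpiSC replicate 2 (149 intervals) is the start of the replicate 3 list, so the lists were not treated as independent replicates. DE IgG lists were not used here. Promoter windows and strands of chromosome 18 were not used here.

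The members and gene lists were chosen with earlier results of these data known. Genes were named by a rule: the 12 widest members, genes with 3 or more members, the 6 widest of each mark, every member of 5 signalling, endoderm and epiblast lists and the widest 2 of each other list, and the extremes of distance. Further members of the axon guidance, BMP and extraembryonic lists, those of genes with several or only 1 marked peak, and those printed with sequence were named after their values were seen. The planned motif search over all members was not run, since no genome was used here.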

Additional observations from a re-analysis of the deposited data

How the results depend on the processing

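The 9 results were recomputed under 41 alternatives, of which 28 changed neither a direction, a call nor a count by more than the set limits. The number of members rose from 1594 to 2340 with a width of at least 200 bp and to 2228 with spacing of 5 kb. With the ends of all genes it rose to 2052. These rises stayed within the set limits. The number fell to 690 with a width of at least 300 bp and to 971 with no other centre within 20 kb. With that width, 24 members were marked down (3.48%), 30 marked up (4.35%) and 15 at a listed gene. With the gene of the closest coding gene end in place of the authors' name, 61 members were at a listed gene, against 28. The share inside any gene, coding or not, was 59.5%. The difference from narrow peaks in the share inside a coding gene turned to -1.86 points with a width of at least 200 bp (adjusted p = 0.331) and to -0.0727 with spacing of 20 kb (adjusted p = 0.973), by Fisher's exact test. Inside any gene, the differences turned to -0.669 points from narrow, -0.574 from clustered and -0.633 from kept peaks (Fisher's exact test, adjusted p = 0.861 each). None of these 5 passed the test in either direction. With spacing of 5 kb, members were inside coding genes 4.91 points more often than clustered peaks (Fisher's exact test, adjusted p = 0.00535). Clustered peaks often share a gene and are not independent, so no call is drawn from this p-value. The alternatives for that difference ran from -0.574 to 4.91 points, and the cause was not tested. The number of members on a control peak was 0 to 0 without each EpiSC IgG replicate in turn (leaving out replicate 2 removes no interval that replicate 3 lacks), and 0 within 1 kb of a control peak. The 6 motif alternatives were not run, because no genome was used here. No paired analysis was possible because both replicates of a state came as 1 list. Without heights or depth, a narrow and a weak peak cannot be told apart, and a peak missing from the EpiSC list may have been under its caller's threshold.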
